A study of Mus musculus with 2 samples.

Results

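N6-methyladenosine (m6A) sites were described that lay outside the DRACH motif and were listed in the cerebellum of a newborn mouse but not in its cerebrum. DRACH is a 5-base motif whose central A carries the mark: the first base is anything but C, the next a purine, C follows the A, and the last base is anything but G. The members were thus selected on presence in one list and absence from the other, and on their 5-mer, so these properties are a description. A site was a member when it was in the cerebellum list, was absent from the cerebrum list at the same chromosome, position and strand, lay on chromosomes 1 to 19, had an A in the GRCm38 reference on its own strand, and had a 5-mer other than DRACH. Of 79355 sites in the cerebellum list, 76905 lay on these autosomes, 76699 of them at an A, 28920 of those outside DRACH, and 20951 of those were absent from the cerebrum list. The members were therefore 26.4% of the cerebellum list, out of 219409 sites in either list.

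The study crossed the distant strains PWK/PhJ and C57BL/6J in both directions and asked how methylation of RNA differs between parental alleles. Analysed here were 2 libraries of poly(A) RNA, one from cerebellum and one from cerebrum, each from a female F1r hybrid (C57 mother, PWK father) at postnatal day 0. Both were treated by GLORI, in which glyoxal and nitrite convert unmethylated adenosine so that it is read as G, while m6A is still read as A. The allele of a site was not analysed here, and 5-mers were read from the C57-type reference, so a PWK base beside a site does not enter them.

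Each list gave only positions, without methylation rates or read counts, so the depth is unknown. A site that is absent from a list may be unmethylated, methylated below the authors' minimum rate, unexpressed or too thinly covered there. The cerebrum list was longer, with 188295 sites, and 88825 of its autosomal sites outside DRACH were absent from the cerebellum list. A further 7969 sites outside DRACH were in both lists. With 1 library per tissue, the tissues could not be tested against each other. Intervals below are 95% Wilson intervals of a share or 95% Newcombe intervals of a difference between shares. Neighbouring sites were counted as if independent, and no other error than that of the counts is included. The number of autosomes with a given direction is added as a description.

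Most m6A in messenger RNA is placed by the METTL3-METTL14 complex, which works on DRACH and leaves most of its marks in long internal exons and near stop codons. METTL16 is a separate enzyme with its own targets, among them the U6 small nuclear RNA and the mRNA of Mat2a, which makes the methyl donor. PCIF1 methylates an adenosine next to the cap. GLORI counts any adenosine that stays unconverted as methylated, whatever enzyme, if any, acted on it.

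The tissue labels were set against marker genes. Of 14 hindbrain or cerebellum markers, 9 held a site in the cerebellum list and 6 in the cerebrum list. Of 14 forebrain markers, 5 held a site in the cerebellum list and 14 in the cerebrum list. Members lay in 7 of the hindbrain markers, with 4 in Zic1, 3 in Zic2 and 1 each in Barhl1, En1, En2, Lhx1 and Gbx2, which all encode transcription factors of hindbrain or cerebellar development. They lay in 2 of the forebrain markers, with 2 in Six3 and 1 in Lhx2. Counts of cerebellum and of cerebrum sites were 19 and 22 in Zic1, 9 and 10 in Zic2, and 3 and 3 in Gbx2. They were 12 and 1 in Barhl1 and in Lhx1, 6 and 0 in En1, and 9 and 0 in En2. Zic4 and Lhx5, without members, held 4 and 24 and 1 and 0. Among markers with a cerebellum site, 77.8% of the hindbrain and 40.0% of the forebrain ones held a member, against 58.9% of all such genes. By site, members were 12 of 75 cerebellum sites in the hindbrain markers and 3 of 19 in the forebrain ones. Over all genes they were 20154 of 74666.

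Some recurrent shapes among the sequences of the members are shown here on their own strand, though many members have none of them. Capitals mark the adenosines of the run, chain, pair or single site shown, so another listed adenosine can stand in lower case. The first is an adenosine followed by T and C, often repeated after 6 nt. The 5 runs with 3 members at steps of 6 nt are shown, with the first run of 2 members in the genome after them. They lay in introns of Pld5 (chr1:176257915-176257944, minus strand) and Cuedc1 (chr11:88190408-88190437, plus strand), in coding exon sequence of Cacna1g (chr11:94456991-94457020, minus strand, exon 9 of 38), which encodes a T-type calcium channel subunit of Purkinje and other neurons, in the 3′ UTRs of Sp1 (chr15:102436292-102436321, plus strand), a zinc finger transcription factor gene, and Rfk (chr19:17399661-17399690, plus strand), which encodes riboflavin kinase, and in an intron of Xkr4 (chr1:3636889-3636918, minus strand). The runs in Pld5, Cuedc1 and Sp1 are in soft-masked repeats, and those in Cacna1g, Rfk and Xkr4 are not. Neither A in capitals of Xkr4 is in ATC, nor is the first of Rfk.
Pld5: ctccAtctccAtctccAtctccatctcctt
Cuedc1: ctctAtctctAtctctAtctctatatcatc
Cacna1g: gggaAtcatgAtcgctAtcctggtcaatac
Sp1: ctatAtctctAtctcaAtctctctgccttt
Rfk: atacActctcAtcttgAtcatattttaaat
Xkr4: gtccAtggccAatcttgctcatcatactag

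Looser chains, with steps of at most 10 nt, held 2 members in 1138 cases, 3 in 85 and 4 in 2. The 2 longest were the runs of Cacna1g and Rfk with 1 more member each, and the first chain of 3 lay in the 3′ UTR of Ogfrl1 (chr1:23368649-23368678, minus strand), in a soft-masked repeat.
Cacna1g, 4 members: gaAtcAtgAtcgctAtcctggtcaataccc
Rfk, 4 members: atAcActctcAtcttgAtcatattttaaat
Ogfrl1: ttAtcttcAAgtattgtacattcatcttcc

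A pair of ATC members 6 nt apart is shown for 4 of the genes with the most members, all in introns outside soft-masked repeats. These examples were chosen after the spacing was seen. They lay in Lsamp (chr16:40117656-40117680, plus strand), Pcdh9 (chr14:93645251-93645275, minus strand), Tenm2 (chr11:36129259-36129283, minus strand) and Nrg3 (chr14:39047611-39047635, minus strand).
Lsamp: ccttaataAtctttAtcatattgaa
Pcdh9: acaacaccAtctgtAtcgctagtcc
Tenm2: tatactcaAtcaagAtcctccctca
Nrg3: cctctgccAtctgaAtccataccat

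The second shape is a motif that differs from DRACH by a single base, and the examples below carry the 5-mers that were most over-represented. They are GGACG in a coding exon of Dst (chr1:34201212-34201232, plus strand, exon 39 of 93), which encodes the cytoskeletal linker dystonin, CGACT in a coding exon of the transcription factor gene Tfap2d (chr1:19104649-19104669, plus strand), GAACG in the 3′ UTR of Enah (chr1:181903807-181903827, minus strand), which encodes an actin regulator, GGATT in the 3′ UTR of Tfap2b (chr1:19234421-19234441, plus strand), GTACT in the coding sequence of Hs6st1 (chr1:36068850-36068870, plus strand), which encodes a heparan sulfate sulfotransferase, and AGACG in the coding sequence of the insulin receptor substrate gene Irs1 (chr1:82286857-82286877, minus strand).
Dst: ttctcagaggAcgtcatttct
Tfap2d: gagcccaccgActttattaac
Enah: ttactgttgaAcgtttgatta
Tfap2b: aacatattggAttggctttgg
Hs6st1: gagaaaaagtActacttcccg
Irs1: actccccaagAcgctccagtg

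Introns held more members than any other region. The share of members in introns was 48.8% (48.1 to 49.4), against 42.4% of the cerebrum-only sites and 8.68% of the shared sites. Members in 3′ UTRs made up 21.9% and members in coding sequence 16.7%, against 35.7% and 32.5% of the shared sites. The 5′ UTR held 0.993% of the members, exons of transcripts that are not full coding models 7.85%, sequence antisense to a gene 0.649% and sequence outside genes 3.15%.

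The intron share of the members was 40.1 percentage points above that of the shared sites (39.1 to 41.0), with the same direction in 19 of 19 autosomes. Against the cerebrum-only sites it was higher by 6.36 points (5.61 to 7.11), in 17 of 19 autosomes. The latter difference turned to -1.93 points (-2.73 to -1.13) when only genes that held sites of both sets were kept, a restriction chosen after seeing the data. The intron share was 22.4% with at most 1 member per gene and region.

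**Figure D1:**
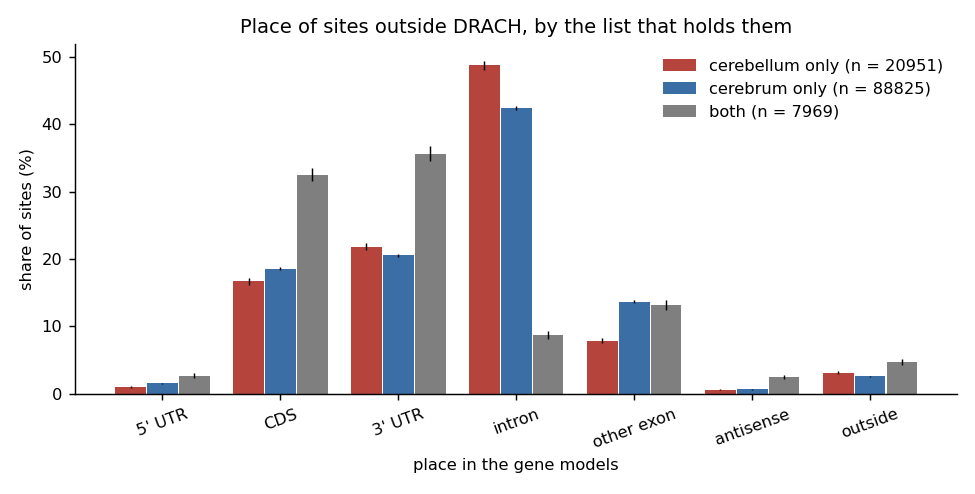
Share of sites outside DRACH in each region of the gene models (vertical axis, %), for the 20951 members (cerebellum only), the 88825 cerebrum-only sites and the 7969 shared sites; black bars are 95% Wilson intervals over sites. Introns hold 48.8% of the members and 8.68% of the shared sites, and both single-tissue sets have smaller shares in coding sequence and 3′ UTRs than the shared sites.

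Members in introns and in exons of coding transcripts differed in their bases. A motif 1 base away from DRACH was found at 47.8% of 8293 members in coding exons and at 33.8% of 10216 members in introns, a difference of 14.01 points (12.6 to 15.4) in 19 of 19 autosomes. The ATC trinucleotide with its A listed ran the other way, at 22.9% of intron members and 11.3% of coding-exon members, a difference of 11.6 points (10.6 to 12.7) in 19 of 19 autosomes. Soft-masked repeats covered 24.9% of the intron members and 14.3% of those in coding exons.

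Uncalled adenosines gave the background for these bases. They were the adenosines outside DRACH that were in neither list and lay within 50 nt of a member on its strand, 489558 in all. Over all members, 39.9% were 1 base away from DRACH (39.2 to 40.6), close to the 38.8% of uncalled adenosines. Among the shared sites the share was 63.0%, a difference of -23.1 points for the members (-24.4 to -21.9). This depended on the region. In coding exons 75.4% of the shared sites were 1 base away, a difference of -27.6 points for the members (-29.1 to -26.01), while in introns 20.2% of 692 shared sites were, and the members were higher by 13.6 points (10.3 to 16.5). Against uncalled adenosines, the members in coding exons were 8.87 points above those near them (7.77 to 9.97), and in introns the difference was -4.79 points (-5.72 to -3.84), with 33.8% against 38.6%.

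The ratio to uncalled adenosines depended on the base that broke the motif. A G at the second base after the A, with the rest of DRACH intact, was found at 3.44% of coding-exon members and 0.611% of the uncalled adenosines near them, a ratio of 5.63. In introns the same break was found at 0.166% of members and 0.185% of uncalled adenosines. A C at the second base before the A was 2.29 times as frequent in coding-exon members as in uncalled adenosines, and a C or T just before the A 1.90 times, while in introns both were less frequent, with ratios of 0.783 and 0.695. A T in place of the C after the A was more frequent than in uncalled adenosines in both regions, with ratios of 1.68 in coding exons and 1.36 in introns. An A or G in that place was less frequent in both, with ratios of 0.625 and 0.713.

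**Figure D2:**
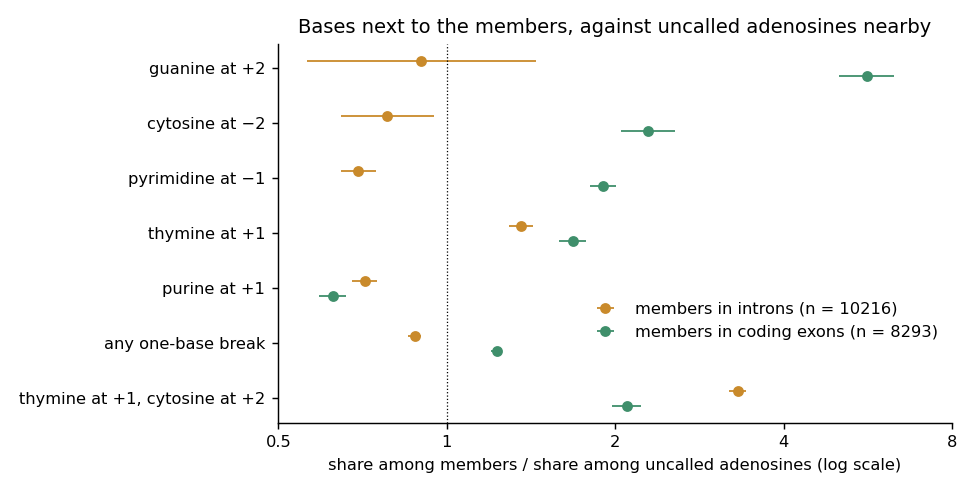
Ratio of the share among members to the share among uncalled adenosines outside DRACH within 50 nt (horizontal axis, log scale), for members in introns and in coding exons; the upper 5 rows are motifs with this single break and the rest of DRACH intact, and bars are 95% Wilson intervals of the members' share over the uncalled share. Guanine at +2 stands at 5.63 in coding exons and 0.901 in introns, and a thymine at +1 followed by cytosine at +2 (ATC) at 3.31 in introns and 2.10 in coding exons.

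The most frequent 5-mers of the members were of the ATC type. TCATC was found at 553 members, CCATC at 522, CTATC at 400 and TTATC at 369. Next came GGATT with 294, TCATT with 276, GTACT with 267, TTATT with 249, ACACA with 243 and AAAAA with 220. The first 4 were 3.84, 4.03, 3.73 and 3.28 times as frequent as among uncalled adenosines, whereas TTATT had a ratio of 0.853, ACACA of 0.768 and AAAAA of 0.750.

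By ratio, among 5-mers with at least 50 members, motifs 1 base away from DRACH came first. GGACG had a ratio of 9.06 with 81 members, CGACT 6.51 with 73, GAACG 6.06 with 70, GGATT 5.26 with 294, GTACT 5.26 with 267 and AGACG 5.02 with 66. These ratios were larger among the shared sites, at 73.2 for GGACG, 49.9 for GTACT and 32.7 for GGATT. Among the cerebrum-only sites they were 14.01, 4.87 and 4.47. The ATC 5-mers did not show such a gap. The ratio of CCATC was 4.03 in the members and 3.63 in the shared sites, that of TCATC 3.84 and 2.78, that of TTATC 3.28 and 2.002, and that of CTATC 3.73 and 5.52.

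The A of ATC was listed at 17.2% of the members (16.7 to 17.7) and was 6.21% of the uncalled adenosines. The share exceeded that of the cerebrum-only sites by 5.41 points (4.87 to 5.97) and that of the shared sites by 6.34 points (5.48 to 7.19), both in 19 of 19 autosomes. Within introns alone, it exceeded that of the cerebrum-only sites by 6.85 points (5.96 to 7.75), but the direction against the shared sites turned, with 22.9% of intron members and 58.5% of shared intron sites, a difference of -35.6 points (-39.3 to -31.8). Of the 3606 ATC members, 65.0% lay in introns.

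Members were often spaced by exactly 6 nt. There were 717 pairs of members at 6 nt on the same strand, against 30 at 5 nt and 24 at 7 nt. Smaller peaks stood at 3 nt, with 189 pairs, and at 9 nt, with 126. The 6-nt pairs formed 712 runs, 707 of 2 members and 5 of 3, and together held 1429 members. That was 6.82% of the members (6.49 to 7.17), against 3.97% of the cerebrum-only sites and 6.37% of the shared sites. The members were 2.85 points above the cerebrum-only sites (2.49 to 3.22, 18 of 19 autosomes), and 0.446 points above the shared sites, with an interval from -0.204 to 1.07 that includes 0. Within introns, where most paired members lay, the shares were 9.77% of the members and 33.4% of the shared sites, a difference of -23.6 points (-27.3 to -20.1).

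**Figure D3:**
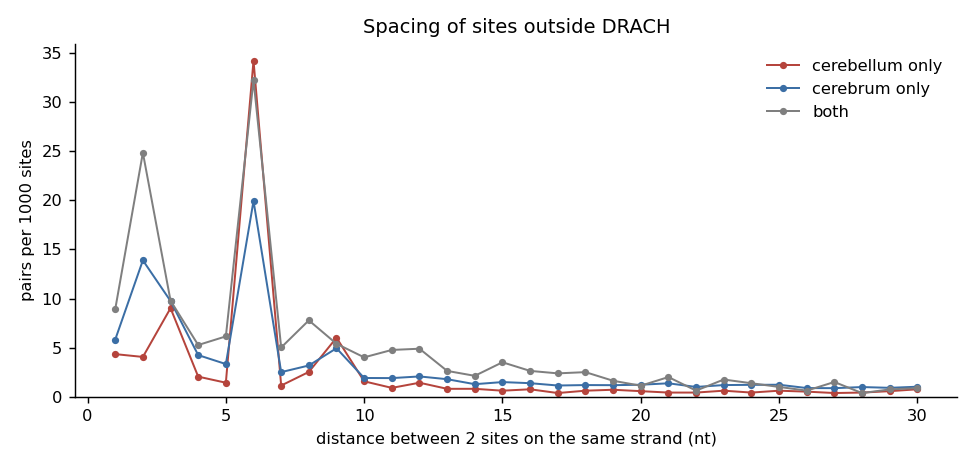
Pairs of sites on the same strand at each distance from 1 to 30 nt (horizontal axis), per 1000 sites of the set (vertical axis), for the members (cerebellum only), the cerebrum-only sites and the shared sites. The peak at 6 nt reaches 34.2 pairs per 1000 members, 19.9 per 1000 cerebrum-only sites and 32.3 per 1000 shared sites, and the peak at 2 nt of the other sets is small among the members, at 4.06.

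The paired members shared a sequence and a place. Of the 1429, 70.0% were at the A of ATC and 69.8% lay in introns, while 20.5% were in soft-masked repeats, near the 21.8% of all members. Paired sites of the other sets were also mostly at ATC, with 58.6% of the cerebrum-only and 66.5% of the shared ones. In introns lay 61.7% and 45.5% of them. At the upstream site of a run, T followed the A in 96.5% and C came next in 63.8%. At the partner 6 nt downstream, T followed in 96.3% and C in 77.7%. In the 12 nt on each side of the upstream site, without its 5-mer, G made up 9.58% of the bases. This share was 14.1% over all members and 16.2% over the uncalled adenosines. The partner's A falls in this stretch by the choice of pairs, so the lower share of G is fixed in part.

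An AT at the 6-nt distance was also common where the partner itself was not a member, though it could be a listed site of another set. Among ATC members outside any 6-nt pair of members, 49.8% had an AT 6 nt away on either side (47.9 to 51.7). The share was 19.5% of the uncalled adenosines in ATC. The same share was 42.2% of the cerebrum-only sites and 64.6% of the shared sites. Partners of members at 6 nt were mostly other members, yet 180 sites outside DRACH and 59 DRACH sites of both lists stood 6 nt from a member, as did 127 sites outside DRACH of the cerebrum list alone. Few members stood beside a DRACH site: 3.03% had one of the cerebellum list within 10 nt, against 3.06% of the cerebrum-only sites with one of the cerebrum list, and 7.86% of the shared sites.

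The flanks of the members were poor in G, most of all in introns. In the 12 nt on each side of the A, without the 5-mer, G made up 10.3% at intron members and 13.2% at uncalled adenosines near them. C made up 24.8% and 20.9%. G made up 12.1% at cerebrum-only sites in introns and 9.42% at shared ones. At coding-exon members, G made up 18.7% against 19.9%. Soft-masked repeats covered 21.8% of the members, against 22.9% of the uncalled adenosines near them and 16.4% of the shared sites.

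In coding exons, 12.2% of the members lay within 200 nt of the stop codon, against 12.5% of the cerebrum-only sites and 20.4% of the shared sites. Members 1 base away from DRACH were found there more often than members further from it, at 15.5% and 9.15%, a difference of 6.31 points (4.90 to 7.73) in 19 of 19 autosomes. The cerebrum-only sites showed a like split, at 16.1% and 9.82%. Over all members, 39.9% were 1 base away from DRACH, 41.2% were 2 away, 17.1% were 3 away and 1.85% broke all 4 flanking positions.

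The members were spread over 5657 genes, of 9608 genes with a site in the cerebellum list, and 5130 of the host genes were protein coding. In all, 2692 genes held a single member, 304 held 10 or more and 38 held 50 or more. The 20 genes with the most members held 2313 of them, or 11.04%. Intron members lay in long genes, with a median length of 108 kb for genes with an intron member. The median was 39.4 kb for genes with any member and 17.4 kb for genes with a cerebellum site and no member. Genes without a member need not hold any intron site, so these are unlike sets. Genes of at least 500 kb held 50.3% of the intron members, 42.2% of the cerebrum-only intron sites and 34.2% of the shared intron sites.

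Cell adhesion and synapse genes led the list. Lsamp, an adhesion protein of the IgLON family, held 195 members, 193 of them in introns, over 2197 kb. Nrxn3, which encodes a presynaptic adhesion protein, held 91, and Nlgn1, which encodes a postsynaptic one, held 104. Pcdh9, a protocadherin, held 164, Tenm2, a teneurin, 157, and Cadm2, a synaptic adhesion molecule, 147. Per 100 kb of gene, Pcdh9 held 18.7 members and Cadm2 15.2, against 8.87 in Lsamp and 4.80 in Ptprd, a receptor tyrosine phosphatase with 109 members.

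Other leading genes encode signals, channels and regulators of neurons. The ErbB ligand genes Nrg3 and Nrg1 held 151 and 84 members. Rbfox1, a splicing factor, held 113, and Fgf14, whose product binds sodium channels, held 101. Kcnd2, a potassium channel subunit, held 78, and the kainate receptor subunit gene Grik2 76. The rest were the cell contact genes Ctnna2 with 107, Cntnap2 with 101, Lrrtm4 with 99 and Adgrl3 with 84, then Csmd1 with 81 and the sarcoglycan gene Sgcz with 80. In each of the 20 leading genes, at least 68 members were in introns. Members in a 6-nt pair ranged from 0 in Nlgn1 to 18 in Lsamp.

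The cerebrum list was longer, and over all sites there were 0.236 members for each cerebrum-only site outside DRACH. The next counts cover the 128 genes with 20 or more members. This limit is on the numerator alone and so favours high values of the ratio. Among these genes the median of the ratio was 0.385. It exceeded 1 in 8 of them, a group chosen after their values were seen: Zfhx4 with 26 members and 13 cerebrum-only sites, Zfhx3 with 25 and 15, Zfp804b with 21 and 14, Ntng1 with 33 and 24, Cntn4 with 34 and 26, Dscam with 47 and 39, Sgcz with 80 and 68, and Purg with 21 and 18. Zfhx3 and Zfhx4 encode large zinc finger transcription factors, and Ntng1, Cntn4 and Dscam encode neuronal adhesion proteins. The lists carry no expression values, so more transcript in the cerebellum and more methylation per transcript cannot be told apart.

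**Figure D4:**
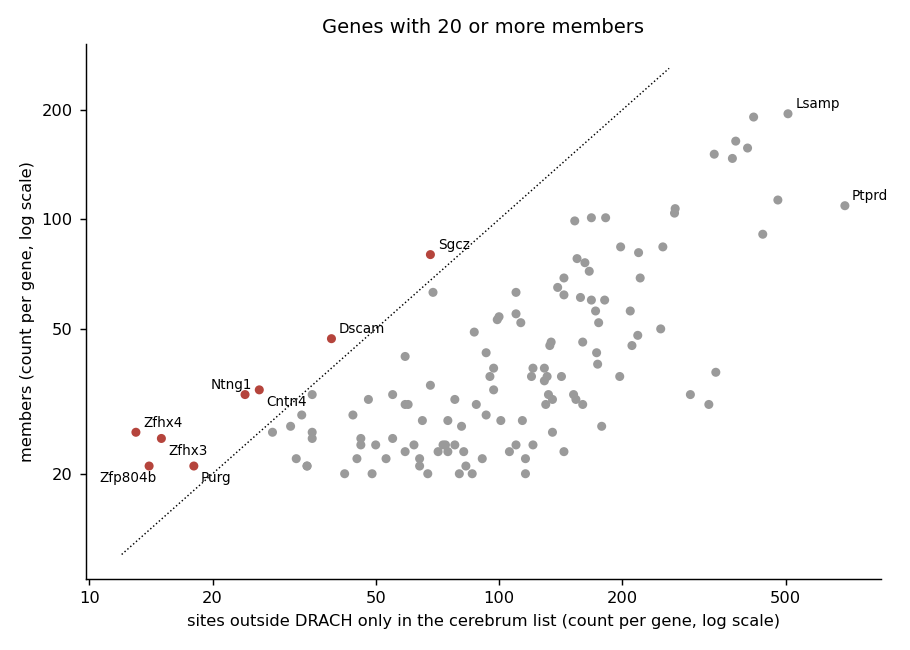
Members per gene (vertical axis, log scale) against sites outside DRACH found only in the cerebrum list (horizontal axis, log scale), for the 128 genes with 20 or more members; the dotted line marks equal counts. Lsamp and Ptprd lie below the line, with 195 and 109 members, while Zfhx4, Zfhx3, Zfp804b, Ntng1, Cntn4, Dscam, Sgcz and Purg lie above it.

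Along the genes, fewer intron members lay towards the 3′ end. The amount of intron sequence in each part of a gene was not counted, so these shares are not densities. With each gene cut into 5 equal parts from the 5′ end to the 3′ end, the shares of the 10216 intron members were 25.6%, 22.7%, 20.98%, 18.6% and 12.1%. The cerebrum-only intron sites had nearly the same profile, from 24.7% to 13.2%.

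**Figure D5:**
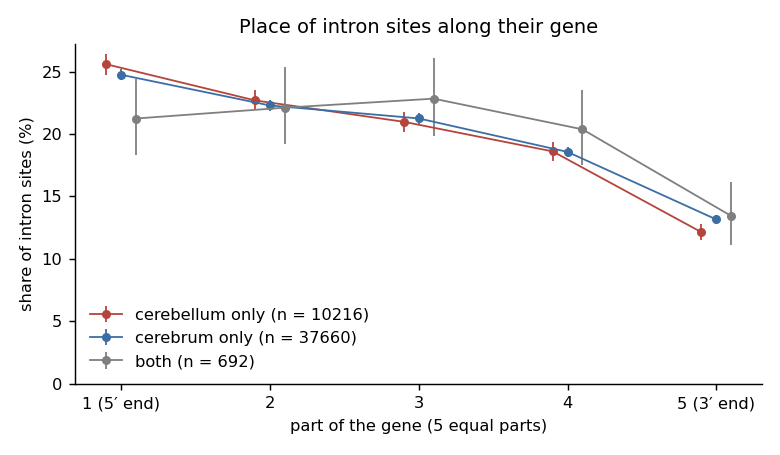
Share of intron sites in each of 5 equal parts of their gene (vertical axis, %; horizontal axis from the 5′ end to the 3′ end), for 10216 members (cerebellum only), 37660 cerebrum-only sites and 692 shared sites; bars are 95% Wilson intervals. The share of members falls from 25.6% in the first to 12.1% in the last, and the cerebrum-only sites fall alongside.

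Members in coding exons were thinly spread and led by other genes. Son, which encodes a splicing protein of nuclear speckles, held 16, Pcdh10, a protocadherin, 15, and Pclo, the active zone protein piccolo, 14. Zfhx3 held 14 and Zfhx4 12. Vezt, an adherens junction gene, held 13, the potassium channel gene Kcnma1 12, the fucosyltransferase gene Fut9 12, D10Wsu102e 12 and Akap6, an anchor of protein kinase A, 11. Son held 1.07 of them per kb of exon and Pclo 0.623.

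Cell lineage genes of the cerebellum held members too. Among 30 Purkinje cell lineage genes, 19 held members, 204 in all with 162 in introns. Dab1, the adaptor of Reelin signalling, held 46, and the transcription factor genes Rora and Foxp2 held 21 and 19. Among 34 autosomal granule cell lineage genes, 18 held 102 members, with 16 in Nfib, 12 each in Astn1 and Astn2, and 11 in the netrin receptor gene Unc5c. Cerebrum-only sites outside DRACH were more numerous, with 501 in the Purkinje list and 569 in the granule list. Each gene named here from these lists also held more of them than members. Of the genes with any site in the cerebellum list, 86.4% of the Purkinje list and 78.3% of the granule list held a member, against 58.9% of all genes. A share above that of all genes was not particular to these lists, since it was 70.6% in a forebrain list. This share counts a gene once, however many sites it holds. By site, members were 204 of 426 cerebellum sites in the Purkinje list, 102 of 365 in the granule list and 35 of 192 in the forebrain list. Over all genes they were 20154 of 74666. These lists contain very long genes, and 39 of 39 genes of a list of synaptic adhesion and other very long neuronal genes held members, 2403 in all.

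The other lists varied in the share of genes with a member among those with a cerebellum site. Among 27 autosomal forebrain genes, 12 held 35 members, or 70.6% of the 17 with a cerebellum site, most in the transcription factor genes Bcl11a with 8, Cux1 with 6 and Cux2 with 4, and 3 in the kinase gene Camk2a. Among 20 radial glia and astrocyte genes, 10 held 46, or 58.8% of the 17 with a cerebellum site, with 18 in the receptor phosphatase gene Ptprz1, 10 in its ligand Ptn, 6 in the glutamate transporter gene Slc1a2 and 5 in Slc1a3. Markers of blood, vessel, meningeal and oligodendrocyte cells held 4 members in 3 of 20 genes, or 33.3% of the 9 with a cerebellum site, with 2 in Pdgfra and 1 each in Kdr and Sox10, and the haemoglobin gene Hbb-bs held none.

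Genes of the m6A machinery carried members as well, with 43 in 16 of 25 genes, or 80.0% of the 20 with a cerebellum site, against 58.9% of all genes. Per site the members were not more frequent, with 43 among 250 cerebellum sites of this list and 20154 among 74666 over all genes. The cytoplasmic reader gene Ythdf3 held 10, the reader helicase gene Ythdc2 4, and Wtap and Rbm15b, both of the writer complex, 3 each. Among abundant noncoding RNAs, 10 of 18 genes held 106 members, or 76.9% of the 13 with a cerebellum site, with 29 in Snhg14, 26 in Rmst, 13 in Rian and 9 in Meg3. Snhg14, Rian and Meg3 are imprinted, and their parental allele was not analysed here.

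Few members lay in genes that the cerebrum list did not touch, and such genes were few in the cerebellum list as a whole. Of 9608 genes with a cerebellum site, 9149 also held a cerebrum site. Members in genes without a cerebrum site numbered 413 (1.97%), in 320 of the 5657 genes with a member. The share rose to 4.05% with at most 1 member per gene and region. Tfap2b, a transcription factor gene of cerebellar inhibitory neuron precursors, held 9 members and 17 DRACH sites of the cerebellum list. Otx2os1, a noncoding RNA gene, held 6 members, the developmental gene Mab21l2 5, Pax5, a transcription factor gene of the midbrain-hindbrain boundary, 5, and Olfr1156 5.

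Some members lay near a cerebrum site without coinciding with one. A cerebrum site stood within 1 nt of 0.458% of the members, within 10 nt of 6.93% and within 50 nt of 19.7%.

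The known METTL16 sequence was rare. The 9-mer TACAGAGAA was found at 5 members, all in annotated small nuclear RNA genes, against 12 of the 7969 shared sites, among them a site in Mat2a, and 10 of the 88825 cerebrum-only sites. The member in Gm22260 (chr1:25279499-25279519, minus strand) and the one in Gm25681 (chr3:109863811-109863831, plus strand) are shown because their flanks are nearly the same. Such genes have near-identical copies among which reads may be split, so their place is uncertain.
Gm22260: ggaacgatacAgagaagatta
Gm25681: tgaacgatacAgagaagatta

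At annotated transcript starts, 6 members lay on the first base, against 40 cerebrum-only sites (0.0450% of that set) and 8 shared sites (0.1004%). The share was 0.0286% of the members, with an interval from 0.0131% to 0.0625%. They included the starts of transcripts of Ncl, which encodes nucleolin (chr1:86351291-86351311), Fnbp1l (chr3:122619543-122619563), Tcaf1 (chr6:42710061-42710081), Mical3 (chr6:121024825-121024845) and Actg1, a cytoplasmic actin gene (chr11:120348479-120348499), all on the minus strand and shown with the genomic bases before the start. In Mical3 and Fnbp1l the base also lies in coding sequence of another transcript, for Mical3 in exon 13 of 32. In Ncl it also lies in exon 2 of 2 of another transcript. Whether these annotated starts are real starts of the RNA was not tested.
Ncl: ggtctgcagtAtcttctcatt
Fnbp1l: aggttccgccAtgagctgggg
Tcaf1: cacgtcccccAtccactggtc
Mical3: tgtttctcagAgactttgatt
Actg1: ggtcggtctcAcactccgccg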

How the data were processed

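Site lists of 1 cerebellum and 1 cerebrum GLORI library were analysed. The authors mapped the reads to mm10 and to a PWK version of it, ran GLORI-tools on each, merged the outcomes per library and kept sites above a minimum methylation rate and read count. The deposited unit is a genomic position with its strand. The files hold 0 methylation rates, so the number of reads behind a site is unknown.

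Positions were matched to GRCm38, the sequence of mm10, and to GENCODE M21 gene models, which are not the release the authors name. A site in an exon of a full coding transcript was placed in the longest one, then in other exons, introns, antisense or outside. Soft-masked bases of the reference stood for repeats. Shares, intervals and counts were computed with Python 3.11.15, numpy 2.4.6, pandas 2.3.3 and statsmodels 0.14.6, and tested on simulated sites. The members, gene lists and tests were chosen with earlier results of these data known. Named are the 20 genes with the most members, the 10 with the most in coding exons, 4 per list, and the 10 leading 5-mers by count and by ratio, described where they form a group. Some genes under this rule are not reported here. Alternatives changed the match to the cerebrum list, the repeats, the weight of each gene, the order of regions and the uncalled adenosines. No test across genes was run.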

Additional observations from a re-analysis of the deposited data

Results flagged for a closer look

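Some sites of the cerebellum list fell outside the rule and are given as values. Chromosome X, which the rule leaves out, held 637 sites outside DRACH found only in the cerebellum list. On chromosomes 1 to 19, 144 sites found only in the cerebellum list had a base other than A in the reference. The mitochondrial chromosome held 8 sites found only in the cerebellum list. Their cause was not tested.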

How the results depend on the processing

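Of 65 alternative values for 15 results, 38 stayed within the interval of the value reported, 22 moved outside it and 5 changed sign. The intron share of 48.8% became 50.7% with no cerebrum site within 10 nt, 46.8% in unmasked sequence, 22.4% with 1 member per gene and region, 42.8% without the 20 leading genes, 47.2% without 6-nt pairs and 60.0% with introns taken before exons. The one-base share of 39.9% became 39.0% with no cerebrum site within 10 nt, 43.3% with 1 member per gene and region and 41.5% without 6-nt pairs. The ATC share of 17.2% became 13.01% with 1 member per gene and region and 13.3% without 6-nt pairs. The share within 10 nt of another member became 11.5% in unmasked sequence, from 12.1%, and that in 6-nt pairs 8.01% with any cerebellum site as partner. The share in genes without a cerebrum site became 1.48% in unmasked sequence, 4.05% with 1 member per gene and region and 2.22% without the 20 leading genes.

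Differences between sets were recomputed under settings chosen after seeing the data. Against the cerebrum-only sites, the intron difference became 4.37 points without the 20 leading genes and -1.93 in genes that hold sites of both sets. The one-base difference of 1.38 points became 4.42 with 1 site per gene and region and -1.67 within introns. The ATC difference became 3.69 with 1 site per gene and region and 6.85 within introns, and the 6-nt difference 3.99 within introns. Within introns the differences from the shared sites became -35.6 for ATC, -23.6 for 6-nt pairs and 13.6 for one base from DRACH, and the last was -27.6 within coding exons. The causes were not tested. No paired analysis was possible because each tissue has 1 library. Without read counts, depth limits every statement on absence.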
